A study of Mus musculus with 8 samples.

Results

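Mouse embryonic stem cells that had received a siPOOL against Tfap4 (siTfap4) were compared directly with the same cells that had received a siPOOL against Zic2 (siZic2). A siPOOL is a complex mixture of small interfering RNAs against 1 transcript. The comparison used 4 of the 8 libraries of the series, 2 per siPOOL. Of the 55421 genes in the deposited count table, the 14647 that passed a filter on low counts were tested. The siNeg group (negative control siPOOL) and the siWiz group (siPOOL against Wiz) did not enter the difference, and their levels are given beside it as background.

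All 4 groups were E14 embryonic stem cells on a 129/Ola background, labelled as blastocyst tissue, and all carried the same knockout of the miR-290-295 cluster. They were grown on gelatin with serum and LIF, transfected with 5 nM siPOOL and harvested after 36 h, so every group shared the microRNA deletion and a transfection. The series design describes the libraries of a group as biological duplicates. Whether they came from separate cultures or days is not given in the sources used here, so p-values measure the spread between these libraries, which may be technical. QuantSeq libraries read the 3' ends of polyadenylated transcripts. The siTfap4 libraries held 8326675 and 8829051 reads counted to genes, and the siZic2 libraries 13788856 and 9328709.

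Tfap4 encodes a basic helix-loop-helix factor (also called AP-4) that binds E-boxes with a symmetric core, CAGCTG, and is known in other cells as a transcriptional target of Myc that represses Cdkn1a. Zic2 encodes a zinc finger factor related to the Gli proteins of the Hedgehog pathway and is known as a factor of the move from naive to primed pluripotency. The deleted cluster encodes the most abundant microRNAs of embryonic stem cells, which are known to speed entry into S phase by repressing cell cycle inhibitors. A deletion of those microRNAs is the background of both groups, so 3 of their mature sequences that share a seed are shown. They are from RefSeq on GRCm38.p6, plus strand, with the seed (bases 2 to 8) in capitals.
mmu-miR-291a-3p (chr7:3218968-3218989): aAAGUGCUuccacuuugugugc
mmu-miR-294-3p (chr7:3220691-3220712): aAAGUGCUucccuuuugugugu
mmu-miR-295-3p (chr7:3220815-3220837): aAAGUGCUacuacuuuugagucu

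Markers of embryonic stem cells were present in all 4 libraries. Sox2, a core pluripotency factor, had 898 and 904 CPM in siTfap4 and 763 and 784 CPM in siZic2. CPM are reads of a gene relative to its library's reads in the genes tested, with TMM factors. Esrrb, a naive pluripotency factor, had 247 and 273 CPM in siTfap4 and 350 and 365 CPM in siZic2. The markers did not move alike. Pou5f1 was higher in siTfap4 (57.4 and 48.1 CPM, against 22.4 and 25.9 CPM in siZic2). Zfp42 (311 and 254, against 453 and 369 CPM), Nanog (77.6 and 178, against 382 and 516 CPM) and Dppa5a (3.72 and 9.26, against 596 and 795 CPM) were lower. Summed levels of the marker lists of other cell types overlapped between the groups for trophectoderm (195 and 319 CPM in siTfap4, 213 and 288 CPM in siZic2), primitive endoderm (1146 and 961, against 1037 and 956), mesoderm (11.03 and 14.5, against 11.3 and 14.4) and neural cells (162 and 131, against 142 and 147). A lower sum in siTfap4 was seen for the 2C-like markers (113 and 176 CPM in siTfap4, 225 and 242 CPM in siZic2, with Zscan4f at 0 counts). Only 1 of them, Eif1a, had a mean of at least 5 CPM, so this sum was mostly the level of 1 gene. The fibroblast and feeder sum was also lower (295 and 306 CPM in siTfap4, 478 and 344 CPM in siZic2). Of its 12 markers, 3 passed the count filter, 2 had a mean of at least 5 CPM and none was called. The part of these lists in the results was not tested. In the fibroblast list Fap and Postn had 0 counts in all 4 libraries, as did Afp of the primitive endoderm list and Fabp7, Neurog2 and Dcx of the neural list. In bulk samples, fewer cells of a type and less RNA per cell cannot be told apart. On the first principal component of all 8 libraries (59.8% of the variance), the siTfap4 libraries lay at -103 and -57.7, and the other 6 lay between 1.85 and 38.9. The siTfap4 replicates also differed more from each other than the siZic2 replicates did, by a median of 0.369 against 0.242 on the log2 scale over all genes tested.

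The transcript of Tfap4 (chr16:4544661-4559854, minus strand, GRCm38) was lower where it was targeted. It had 12.03 and 15.7 CPM in siTfap4 and 31.0 and 33.0 CPM in siZic2, on 97 and 134 counts and 447 and 307 counts. The groups did not overlap, and siWiz (28.6 and 32.9 CPM) and siNeg (33.4 and 37.1 CPM) lay near siZic2. The mean was 13.9 ± 2.60 CPM in siTfap4 and 32.0 ± 1.45 CPM in siZic2 (SD, n = 2 each). The Tfap4 level in siTfap4 was 43.4% of that in siZic2 (95% confidence interval 29.9 to 63.0%), a log2 fold change of -1.20 ± 0.25 (SE, adjusted p = 0.00545, edgeR quasi-likelihood test with Benjamini-Hochberg adjustment). Without siTfap4 replicate 1 the Tfap4 log2 fold change was -1.03 and its adjusted p was 0.0514. With the GC and length correction described further on it was -0.74 with an adjusted p of 0.0289.

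Zic2 (chr14:122475435-122479852, plus strand, GRCm38) was counted at low depth in every group. It had 6.20 and 5.39 CPM in siTfap4 and 2.15 and 1.83 CPM in siZic2, on 50 and 46 counts and 31 and 17 counts. The groups did not overlap. The Zic2 mean was 5.80 ± 0.570 CPM in siTfap4 and 1.99 ± 0.226 CPM in siZic2 (SD, n = 2 each), a log2 fold change of 1.53 ± 0.45 (SE, adjusted p = 0.0275). However, siWiz had 2.59 and 2.01 CPM of Zic2 and siNeg had 4.49 and 2.21 CPM, so siZic2 lay close to siWiz and to siNeg replicate 2, and siZic2 against siNeg did not pass (log2 -0.75, adjusted p = 1.00). The Zic2 call was lost without siTfap4 replicate 1 (adjusted p = 0.136), without siZic2 replicate 1 (0.131) and without siZic2 replicate 2 (0.154), with log2 fold changes of 1.42 to 1.63. A test against a 1.5-fold minimum gave an adjusted p of 0.0930. Wiz, the target of the third siPOOL, had 30.1 and 35.9 CPM in siTfap4 and 43.9 and 37.5 CPM in siZic2, a log2 fold change of -0.30 with an adjusted p of 0.367, but with the GC and length correction it was -1.11 with an adjusted p of 0.00713.

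**Figure D1:**
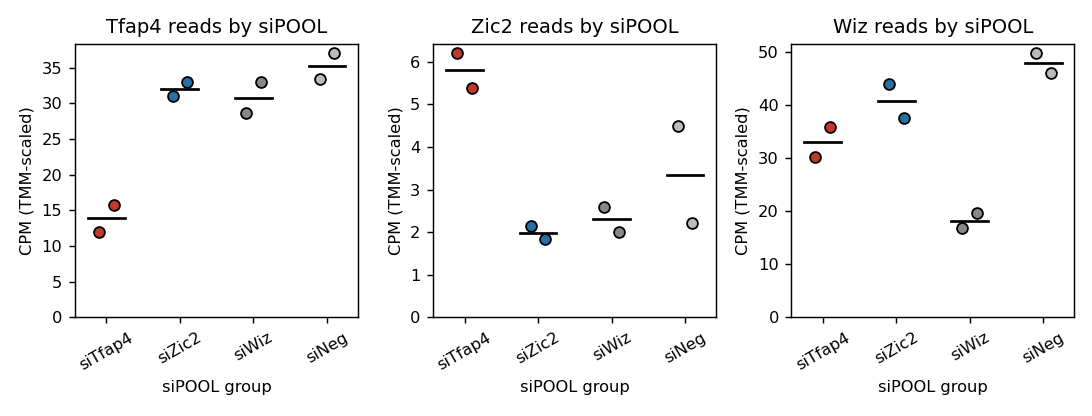
Level of Tfap4, Zic2 and Wiz in CPM in each library of the 4 siPOOL groups, with a bar at the mean of each group. Tfap4 sits at 12.03 and 15.7 CPM in siTfap4 against 31.0 and 33.0 CPM in siZic2, while Zic2 in siZic2 (2.15 and 1.83 CPM) lies beside siWiz and 1 siNeg library.

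Across the genes tested, 3379 differed between siTfap4 and siZic2 at an adjusted p under 0.05, which is 23.1% of them. Of these, 1232 genes (8.41% of those tested) were higher and 2147 genes (14.7%) were lower in siTfap4. The differences were larger downward. Among the called genes with over 3 counts in each group, the median was 2.05-fold for the 1227 that were higher and 2.85-fold for the 2042 that were lower, and 37 were at least 4-fold higher against 579 at least 4-fold lower. The median log2 fold change of all genes tested was 0.02. Both siTfap4 libraries lay above both siZic2 libraries for 4823 genes (32.9%) and below both for 4955 genes (33.8%), so the numbers that did not overlap were nearly equal in both directions. Of the protein-coding genes tested, 1127 were called higher and 1980 lower. Among genes called lower, the siTfap4 replicates differed by a median of 0.546 on the log2 scale against 0.194 for the siZic2 replicates, and siTfap4 had the lower total counts.

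A call made with 2 libraries per group can rest on 1 of them. Leaving out a siTfap4 or siZic2 library leaves 1 in that group, so a call can also be lost through fewer libraries alone. Atp1a4, for example, had a log2 fold change of 1.29 in the main fit. It was 1.31 without siZic2 replicate 1 and 1.23 without siZic2 replicate 2, and its call was lost in both. When each of the 8 libraries was left out in turn, 790 of the 3379 calls (23.4%) were kept throughout, 27 of them higher and 763 lower. Leaving out siTfap4 replicate 1 left 905 calls (74 higher, 831 lower), leaving out siZic2 replicate 1 left 1288 (88 and 1200), and leaving out siZic2 replicate 2 left 1264 (160 and 1104). Leaving out siTfap4 replicate 2 raised the count to 4057. The lowest counts per list with a library left out, given below, occurred without siTfap4 replicate 1 or a siZic2 replicate, in some lists also without others. In the account that follows, a call is named as kept when it held with each of the 8 libraries left out. Otherwise the libraries without which it was lost are named. A lost call is not by itself a smaller difference.

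**Figure D2:**
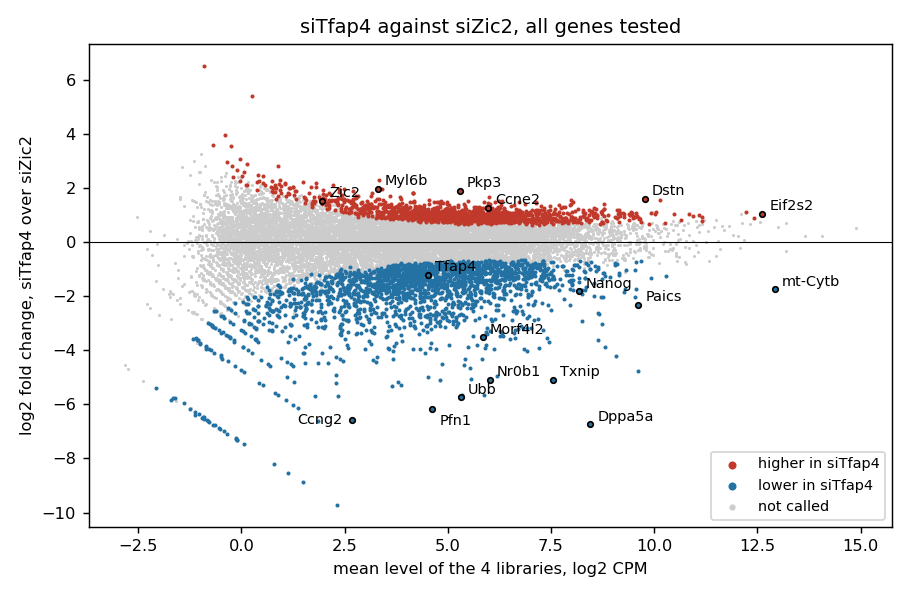
Log2 fold change of siTfap4 over siZic2 (vertical axis) against the mean level of the 4 libraries in log2 CPM (horizontal axis), 1 point per gene tested, coloured by call at an adjusted p under 0.05. Most differences of at least 4-fold belong to the 2147 genes called lower, not to the 1232 called higher, and the parallel lines at the lower left are genes with a few or 0 counts in siTfap4.

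The direction of a call followed the GC content of the transcript end. GC was taken over the last 300 bases of protein-coding transcripts, and the genes were split into tertiles. In the low-GC tertile (15.3 to 38.3% GC), 108 genes were called higher and 986 lower of 4292 tested, with a median log2 fold change of -0.33. In the high-GC tertile (47 to 73.7% GC), 731 were called higher and 281 lower of 4127, with a median of 0.43. The middle tertile lay between, with 287 higher and 712 lower of 4064. The share of counts in low-GC genes was 31.9 and 32.6% in siTfap4 and 38.4 and 37.2% in siZic2. The siNeg replicates alone spanned 39.8 and 33.0%, and siWiz 36.7 and 34.0%. With GC content and length corrected for, 1396 of 12483 protein-coding genes (11.2%) were called higher and 1965 (15.7%) lower. The low-GC tertile then held 571 genes called higher and 722 lower, and the high-GC tertile 286 and 538. Of the 3105 main calls that could enter that fit, 2300 were called in the same direction, 656 of them higher and 1644 lower. Whether GC content had a part in any single call was not tested beyond this correction.

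**Figure D3:**
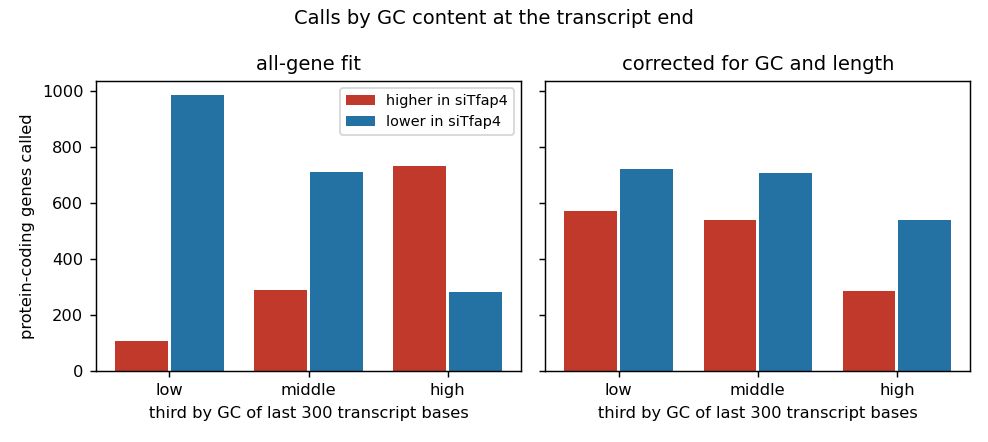
Number of protein-coding genes called higher and lower in siTfap4 than in siZic2, by tertile of GC content over the last 300 transcript bases, without (left) and with (right) a correction for GC and length. The low-GC tertile holds 108 higher and 986 lower calls without it and 571 and 722 with it.

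The largest falls reached a near loss of signal, in genes of different functions. Dppa5a, a small RNA-binding protein of pluripotent cells, had 3.72 and 9.26 CPM in siTfap4 and 596 and 795 CPM in siZic2. It was 107-fold lower, with a log2 fold change of -6.73 ± 0.60 (SE, adjusted p = 0.000136), and -7.55 without siTfap4 replicate 2. Related copies match 30.8% of the Dppa5a transcript end, so part of its reads could have been placed elsewhere. Txnip, a thioredoxin inhibitor that restrains glucose uptake, had 8.56 and 12.9 CPM in siTfap4 and 378 and 351 CPM in siZic2, which was 33.9-fold lower (log2 -5.08 ± 0.39 SE, adjusted p = 4.75e-05). Pfn1, the actin monomer binder profilin, had 0.744 and 0.586 CPM in siTfap4 and 42.8 and 54.3 CPM in siZic2 (71.8-fold lower, adjusted p = 0.000515). In all 3 genes both siTfap4 libraries lay far below both siZic2 libraries, and the calls were kept. In siNeg, Txnip had 355 and 276 CPM, while Pfn1 had 51.5 and 12.5 CPM, so siNeg replicate 2 lay below siZic2 for Pfn1.

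Nr0b1 (Dax1), an orphan nuclear receptor of the naive network, had 1.49 and 5.86 CPM in siTfap4 and 102 and 150 CPM in siZic2 (33.9-fold lower, adjusted p = 0.000359). Its log2 fold change of -5.08 was -4.43 without siTfap4 replicate 1 and -6.40 without siTfap4 replicate 2. Ctnnd1, the catenin p120 that stabilises cadherins, had 2.48 and 2.11 CPM in siTfap4 and 111 and 120 CPM in siZic2 (50.03-fold lower, adjusted p = 0.000327). Pmpcb, part of the protease that removes mitochondrial targeting sequences, had 0.868 and 2.23 CPM against 67.4 and 91.1 CPM, a log2 fold change of -5.65 that was -6.50 without siTfap4 replicate 2. In these 3 genes, too, siNeg replicate 2 was the lower of the siNeg libraries, with 41.2 against 151 CPM for Nr0b1, 43.7 against 151 CPM for Ctnnd1 and 21.8 against 96.0 CPM for Pmpcb. Fbxl14, an F-box protein of a ubiquitin ligase, was 39.7-fold lower at 0.496 and 0.703 CPM in siTfap4 and 24.0 and 24.7 CPM in siZic2, with siNeg at 30.3 and 11.7 CPM. All 4 calls were kept.

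Some of the deepest falls ended in counts too few for a fold. Ccng2, an atypical cyclin linked to cell cycle arrest, had 2 counts in the siTfap4 libraries together and 311 in siZic2, a depth-adjusted ratio of 0.919% (exact binomial 95% counting interval 0.111 to 3.35%). Bambi, a pseudoreceptor that dampens BMP and TGF-beta signalling, had 3 counts in siTfap4 and 230 in siZic2, a ratio of 1.86% (0.382 to 5.52%). The intervals cover counting error only. Both groups were apart in every library, and the calls of Ccng2 and Bambi were kept with adjusted p-values of 0.000819 and 0.000346. Over all genes tested, 37 had 0 counts in both siTfap4 libraries and 1 had 0 counts in both siZic2 libraries.

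Several of the smallest p-values belonged to genes whose replicates were close. Morf4l2, a subunit of the NuA4 histone acetyltransferase, had 8.43 and 9.97 CPM in siTfap4 and 104 and 107 CPM in siZic2 (11.5-fold lower, log2 -3.52 ± 0.28 SE, adjusted p = 4.75e-05). Dnmbp, a guanine nucleotide exchange factor for Cdc42, had 5.83 and 8.91 CPM against 73.0 and 58.7 CPM (8.92-fold lower, adjusted p = 0.000162). Ptk7, a receptor of planar cell polarity signalling, had 4.34 and 2.58 CPM against 36.2 and 36.0 CPM (10.4-fold lower, adjusted p = 0.000200). These genes were also high in siNeg, at 85.1 and 98.3 CPM for Morf4l2, 51.3 and 49.7 CPM for Dnmbp and 34.1 and 25.3 CPM for Ptk7. Sem1, a small subunit of the proteasome lid, had 9.18 and 18.9 CPM in siTfap4 and 177 and 257 CPM in siZic2, a log2 fold change of -3.95 that was -4.57 without siTfap4 replicate 2. Cox17, a copper chaperone for cytochrome c oxidase, had 2.11 and 4.81 CPM against 58.4 and 103 CPM (-4.53, and -5.26 without siTfap4 replicate 2). All 5 calls were kept.

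**Figure D4:**
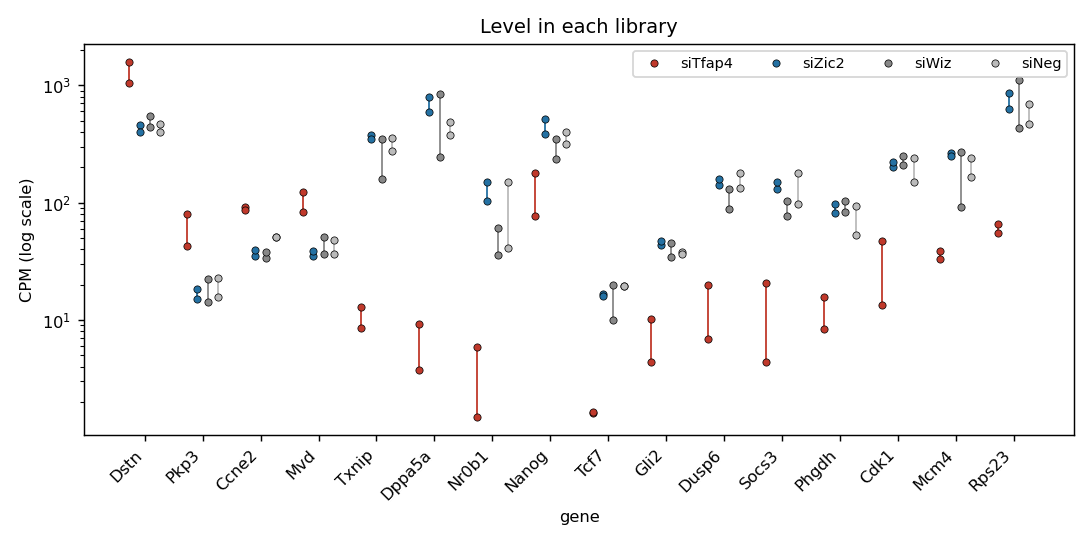
Level in CPM (log axis) of 16 genes in each library of siTfap4, siZic2, siWiz and siNeg, with a line joining the 2 libraries of a group. For the 4 genes at the left both siTfap4 libraries lie above all other libraries, and for the 12 at the right they lie below, with Dppa5a at 3.72 and 9.26 CPM in siTfap4 against 596 and 795 CPM in siZic2.

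The largest rises were smaller than the largest falls. Pkp3, a desmosomal plakophilin, had 80.6 and 42.3 CPM in siTfap4 and 15.1 and 18.2 CPM in siZic2 (3.70-fold higher, adjusted p = 0.00257, kept). Its log2 fold change of 1.89 was 1.19 with the GC and length correction (adjusted p = 0.00648). Myl6b, a myosin light chain, had 17.1 and 14.3 CPM against 3.53 and 4.52 CPM (3.92-fold higher, log2 1.97, adjusted p = 0.00184, kept), and 1.23 on the log2 scale with that correction. Zfp13, a zinc finger protein, had 21.0 and 12.9 CPM against 3.74 and 4.95 CPM (3.92-fold higher, log2 1.97, adjusted p = 0.00369, kept), and 1.18 with the correction. S100a1, a calcium-binding protein, had 15.6 and 11.6 CPM against 3.95 and 4.30 CPM (3.30-fold higher, adjusted p = 0.00356, kept). Snord89, a small nucleolar RNA, was 3.50-fold higher at 25.2 and 30.01 CPM against 8.11 and 7.64 CPM (adjusted p = 0.00320, kept). Not being protein-coding, it did not enter the fit with the GC and length correction. The libraries read polyadenylated transcripts, and the origin of the Snord89 reads was not tested. A rise of a far more abundant transcript was that of Dstn, the actin depolymerising factor destrin, with 1586 and 1040 CPM in siTfap4 and 462 and 397 CPM in siZic2, with siNeg at 470 and 398 CPM. It was 3.06-fold higher (log2 1.61 ± 0.27 SE, adjusted p = 0.00158), its groups did not overlap, and the call was kept.

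Of the 5 most counted genes called in each direction, 2 were kept, both of them falls. Paics, an enzyme of purine synthesis, had 106 and 419 CPM in siTfap4 and 1162 and 1455 CPM in siZic2, a log2 fold change of -2.32 (adjusted p = 0.00400) that was -1.65 without siTfap4 replicate 1 and -3.64 without siTfap4 replicate 2. mt-Cytb, the mitochondrially encoded cytochrome b, had 2118 and 4977 CPM against 10709 and 13127 CPM (-1.75, adjusted p = 0.00449, and -2.50 without siTfap4 replicate 2). The other 7 of the 8 mitochondrial mRNAs tested did not pass. Eif2s2, a subunit of the translation initiation factor eIF2, had 9038 and 7905 CPM in siTfap4 and 3547 and 4647 CPM in siZic2 (2.07-fold higher, adjusted p = 0.0166), a call lost without siTfap4 replicate 1 (0.0996) and without siZic2 replicate 1 (0.167). Actb, cytoplasmic beta-actin, had 8691 and 5691 CPM against 4143 and 3510 CPM (1.88-fold higher, adjusted p = 0.0304), and its call was lost without siTfap4 replicate 1 (0.257), siZic2 replicate 1 (0.110) or siZic2 replicate 2 (0.188).

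Pluripotency lists held calls in both directions, and are read against 8.41% of all genes tested called higher and 14.7% called lower. Of 21 naive pluripotency factors, 7 fell and 0 rose, with a median log2 fold change of -0.20 beside 0.02 over all genes tested, and 5 of the 7 calls were kept (0 to 1 rises and 5 to 8 falls with single libraries left out, 1 and 8 with the GC and length correction). Besides Dppa5a and Nr0b1, Nanog, a core transcription factor of the naive state, had 77.6 and 178 CPM in siTfap4 and 382 and 516 CPM in siZic2. It was 3.52-fold lower (log2 -1.81 ± 0.35 SE, adjusted p = 0.00379, kept), and -2.54 without siTfap4 replicate 2. Gbx2, a homeobox factor induced by LIF, had 11.7 and 19.11 CPM against 46.9 and 44.0 CPM (2.95-fold lower, adjusted p = 0.00187, kept). Other naive factors did not pass, among them Esrrb (log2 -0.46), Klf4 (0.29), Tfcp2l1 (-0.08) and Tbx3 (0.01).

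Of 15 general pluripotency factors, 4 rose and 1 fell, with a median of 0.22, and none of the 5 calls was kept (0 to 4 rises and 0 to 2 falls with single libraries left out, 7 and 1 with the GC and length correction). Pou5f1 (Oct4) had 57.4 and 48.1 CPM in siTfap4 and 22.4 and 25.9 CPM in siZic2, with siNeg at 24.4 and 27.5 CPM. It was 2.19-fold higher (adjusted p = 0.00728), a call lost without siTfap4 replicate 1 (0.0533) and without siZic2 replicate 1 (0.0987). Lin28a, which blocks the maturation of let-7 microRNAs, had 125 and 95.7 CPM in siTfap4 and 47.7 and 55.0 CPM in siZic2 (2.15-fold higher, adjusted p = 0.00578, lost without siZic2 replicate 1 at 0.0863). Sox2 did not pass (log2 0.22). Of 15 formative and primed markers, 2 rose, 1 of them the siPOOL target Zic2, and 3 fell (0 to 4 rises and 1 to 4 falls with single libraries left out, 1 and 2 with the GC and length correction). The 1 call kept was that of Foxd3, a forkhead factor of the exit from naive pluripotency, with 4.71 and 13.4 CPM in siTfap4 and 63.3 and 55.7 CPM in siZic2 (6.56-fold lower, log2 -2.71, adjusted p = 0.00126, and -3.67 without siTfap4 replicate 2).

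Targets of 4 signalling pathways were counted beside a background of 14.7% of all genes called lower and 8.41% called higher. Of 9 Wnt targets, 5 fell and 0 rose, with a median log2 fold change of -1.67, and 4 of the calls were kept (0 rises and 4 to 5 falls with single libraries left out, 0 and 5 with the GC and length correction). Tcf7, a DNA-binding partner of beta-catenin, had 1.61 and 1.64 CPM in siTfap4 and 16.5 and 15.9 CPM in siZic2 (9.90-fold lower, log2 -3.31 ± 0.39 SE, adjusted p = 0.000257). Notum, a secreted enzyme that inactivates Wnt ligands, had 1.49 and 5.51 CPM against 74.1 and 105 CPM, a log2 fold change of -4.66 that was -4.03 without siTfap4 replicate 1 and -5.91 without siTfap4 replicate 2, with siNeg at 111 and 22.2 CPM. Znrf3, a ligase that removes Wnt receptors, was 3.82-fold lower (3.22 and 3.52 CPM against 12.4 and 13.4 CPM), and Ccnd1, cyclin D1, was 2.47-fold lower (80.7 and 106 CPM against 238 and 222 CPM). Axin2, a feedback inhibitor of the Wnt pathway (log2 -1.66), and Myc (-2.02) did not pass.

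Of 17 ERK targets, 2 rose and 4 fell (median -0.32, 2 calls kept, 0 to 3 rises and 2 to 5 falls with single libraries left out, 1 and 3 with the GC and length correction). Dusp6, the phosphatase that limits ERK, had 6.82 and 19.9 CPM in siTfap4 and 140 and 159 CPM in siZic2 (11.1-fold lower, log2 -3.48, adjusted p = 0.000257, and -4.46 without siTfap4 replicate 2). Ier2, an immediate early gene, was 2.37-fold lower (25.3 and 25.8 CPM against 56.1 and 65.0 CPM, adjusted p = 0.00254). Of 16 LIF and STAT3 targets, 2 rose and 4 fell (median -0.41, 2 kept, 0 to 2 rises and 2 to 6 falls with single libraries left out, 1 and 4 with the GC and length correction). Socs3, the feedback inhibitor of LIF signalling, had 4.34 and 20.6 CPM in siTfap4 and 130 and 151 CPM in siZic2, a log2 fold change of -3.48 (adjusted p = 0.000796) that was -2.77 without siTfap4 replicate 1 and -5.02 without siTfap4 replicate 2. Klf4 (0.29) and Stat3 (-0.05) did not pass. Of 14 Nodal and BMP targets, 1 rose and 4 fell (median -0.50, 2 kept, 0 to 1 rises and 2 to 6 falls with single libraries left out, 2 and 2 with the GC and length correction), and the calls of Bambi and Id3 were those kept. Id3, an inhibitor of basic helix-loop-helix factors, had 7.32 and 27.7 CPM against 73.9 and 92.4 CPM, with a log2 fold change of -2.24 (adjusted p = 0.00397) that was -1.59 without siTfap4 replicate 1 and -3.51 without siTfap4 replicate 2. Id1, of the same family, was at -0.02 and did not pass.

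The Hedgehog, Gli and Zic list, which is read against the same background, holds relatives of the second target. Of its 15 tested members, 2 rose (Zic2 and Gli1) and 7 fell, with a median of -0.83, and 2 calls were kept (0 to 2 rises and 2 to 7 falls with single libraries left out, 2 and 4 with the GC and length correction). Gli2, a transcription factor of the Hedgehog pathway, had 4.34 and 10.2 CPM in siTfap4 and 43.4 and 46.7 CPM in siZic2 (6.16-fold lower, log2 -2.62 ± 0.34 SE, adjusted p = 0.000425, and -3.38 without siTfap4 replicate 2). The Gli2 groups did not overlap, and siNeg lay near siZic2, with 37.8 and 36.1 CPM of Gli2. Zic5, a neighbour and paralog of Zic2, had 13.5 and 21.8 CPM in siTfap4 and 54.3 and 40.2 CPM in siZic2, with siNeg at 34.8 and 25.4 CPM. The Zic5 call (2.68-fold lower, adjusted p = 0.00571) was lost without siTfap4 replicate 1 (0.0593) and without siZic2 replicate 1 (0.0572).

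The same background, with 8.41% of all genes tested called higher and 14.7% called lower, applies to the E-box and p53 lists. The Myc, Max and E-box list holds Tfap4 itself with other members of the network. Of its 23 members, 2 rose and 5 fell, Tfap4 among the falls (median -0.40, 0 to 3 rises and 2 to 6 falls with single libraries left out, 1 and 4 with the GC and length correction), and the calls of Txnip and Usf1 were kept. Usf1, an E-box factor, had 0.620 and 0.352 CPM in siTfap4 and 10.6 and 10.4 CPM in siZic2 (21.3-fold lower, adjusted p = 0.00122), although 42.3% of its transcript end is shared with other sequence. Max, the dimer partner of Myc, had 59.1 and 109 CPM against 182 and 192 CPM (2.22-fold lower, adjusted p = 0.0106), and lost its call without siTfap4 replicate 1 (0.0870) and without siZic2 replicate 2 (0.0587). Of 24 p53 targets, 1 rose and 4 fell (0 to 2 rises and 2 to 4 falls with single libraries left out, 1 and 4 with the GC and length correction), and the calls of Ccng2 and Gtse1 were kept. Gtse1, a microtubule-bound negative regulator of p53, had 3.47 and 5.51 CPM in siTfap4 and 141 and 140 CPM in siZic2 (31.2-fold lower, adjusted p = 0.000477), with siNeg at 134 and 50.9 CPM. Cdkn1a (p21), the described target of both Tfap4 and the deleted microRNAs, had 282 and 317 CPM against 173 and 146 CPM. It was 1.88-fold higher (adjusted p = 0.0154), but the call was lost without siZic2 replicate 1 (0.0787), without siZic2 replicate 2 (0.152) and with the GC and length correction (log2 0.53, adjusted p = 0.0781).

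Cell cycle genes are read against the same background. Of 26 mitosis genes, 2 rose and 11 fell (median -0.32), and 6 calls were kept (0 to 2 rises and 6 to 12 falls with single libraries left out, 3 and 9 with the GC and length correction). Cdk1, the kinase that drives mitosis, had 13.4 and 47.1 CPM in siTfap4 and 201 and 222 CPM in siZic2, a log2 fold change of -2.80 ± 0.44 (SE, adjusted p = 0.00110) that was -2.17 without siTfap4 replicate 1 and -3.99 without siTfap4 replicate 2. Bub1b, a spindle checkpoint protein, had 45.3 and 54.4 CPM against 179 and 156 CPM (3.36-fold lower, adjusted p = 0.000616). Aurkb, the Aurora kinase of the chromosomal passenger complex, had 6.57 and 8.21 CPM against 48.2 and 53.6 CPM (6.87-fold lower, adjusted p = 0.00165), with siNeg at 43.8 and 18.4 CPM. Other mitosis genes did not pass, among them Plk1 (0.17), Birc5 (-0.04) and Tpx2 (0.04).

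Of 28 DNA replication genes, 5 rose and 10 fell (median -0.16, 0.09 with the GC and length correction), and 5 calls were kept (0 to 8 rises and 5 to 10 falls with single libraries left out, 7 and 9 with the GC and length correction). Subunits of the replicative helicase differed: Mcm4 had 38.8 and 33.3 CPM in siTfap4 and 265 and 249 CPM in siZic2 (7.14-fold lower, log2 -2.84 ± 0.40 SE, adjusted p = 0.000645), and Mcm6 was 2.91-fold lower (112 and 152 CPM against 370 and 399 CPM), while Mcm3 (0.27), Mcm5 (0.42) and Mcm7 (0.60) did not pass. Fen1, the flap nuclease, was 4.64-fold lower at 15.0 and 12.8 CPM against 56.7 and 72.4 CPM. Rrm2, a subunit of ribonucleotide reductase, had 30.9 and 71.0 CPM against 192 and 194 CPM, with a log2 fold change of -1.92 that was -2.66 without siTfap4 replicate 2. Of 23 cyclins and cyclin-dependent kinase inhibitors, 3 rose and 8 fell (median -0.25, 4 kept, 1 to 4 rises and 3 to 9 falls with single libraries left out, 2 and 8 with the GC and length correction). Ccne2, cyclin E2, had 91.5 and 85.7 CPM in siTfap4 and 34.8 and 39.3 CPM in siZic2 (2.39-fold higher, log2 1.26 ± 0.22 SE, adjusted p = 0.00216), and was 1 of the 27 rises that were kept. Its siNeg libraries both had 50.8 CPM.

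Stress and metabolic lists moved both ways. These lists, and the glycolysis, ribosomal, junction, actin and EMT lists after them, are read against the same background of all genes tested. It held 8.41% called higher and 14.7% called lower, and the cholesterol counts below lay near these shares. The integrated stress response list had 6 rises and 5 falls among 28 genes, with a median of 0.38 (-0.01 with the GC and length correction), and 4 calls were kept, all of them falls (0 to 7 rises and 4 to 7 falls with single libraries left out, 7 and 6 with the GC and length correction). Phgdh, the first enzyme of serine synthesis, had 8.31 and 15.7 CPM in siTfap4 and 97.1 and 82.3 CPM in siZic2 (7.45-fold lower, adjusted p = 0.000291), with 34.6% of its end shared with other sequence. Psph, the last enzyme of that pathway, had 39.2 and 56.2 CPM against 180 and 213 CPM (4.12-fold lower, adjusted p = 0.00105). Slc7a3, a cationic amino acid transporter, was 3.398-fold lower (73.2 and 167 CPM against 417 and 398 CPM), with a log2 fold change of -1.76 that was -2.49 without siTfap4 replicate 2. Psat1, the middle enzyme of serine synthesis, was at 0.48 and did not pass. Of 22 cholesterol synthesis genes, 2 rose and 3 fell (median 0.13, 2 kept, 1 to 2 rises and 1 to 4 falls with single libraries left out, 3 and 2 with the GC and length correction). Mvd, mevalonate diphosphate decarboxylase, had 123 and 83.8 CPM in siTfap4 and 35.3 and 38.9 CPM in siZic2 (2.79-fold higher, log2 1.48, adjusted p = 0.00265), with 0.82 on the log2 scale after the GC and length correction. Srebf1, a regulator of lipid synthesis, had 0.620 and 2.23 CPM against 23.2 and 20.4 CPM, with a log2 fold change of -3.91 that was -3.30 without siTfap4 replicate 1 and -5.12 without siTfap4 replicate 2.

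Of 25 glycolysis and hypoxia genes, 5 rose and 5 fell (median -0.01, 2 kept, 0 to 8 rises and 2 to 5 falls with single libraries left out, 5 and 4 with the GC and length correction). Slc2a1, the glucose transporter Glut1, had 168 and 161 CPM in siTfap4 and 428 and 397 CPM in siZic2 (2.51-fold lower, adjusted p = 0.00289). Gapdh had 17.7 and 16.8 CPM against 167 and 190 CPM (10.4-fold lower, adjusted p = 0.000569), but 80.8% of its transcript end is shared with other sequence and its reads could have been split or dropped in counting.

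Of 30 ribosomal protein genes, 2 rose and 10 fell (median -0.40, 6 kept, 0 to 4 rises and 6 to 11 falls with single libraries left out, 4 and 11 with the GC and length correction), and 13 of the 30 share at least 50% of their transcript end with other gene models, so these values are uncertain. Rps23 had 55.5 and 65.9 CPM in siTfap4 and 629 and 852 CPM in siZic2 (12.2-fold lower, log2 -3.61 ± 0.40 SE, adjusted p = 0.000223), and -3.02 with the GC and length correction, with 15.4% of its end shared. Rpl15, with no shared end, had 4.59 and 12.3 CPM against 106 and 154 CPM (15.3-fold lower, log2 -3.94, and -4.83 without siTfap4 replicate 2). Others did not pass, among them Rplp0 (0.62), Rps3 (-0.32) and Rpl13a (-0.05). Of 26 ribosome biogenesis genes, 4 rose and 2 fell (median 0.29, 0 to 6 rises and 1 to 2 falls with single libraries left out, 8 and 2 with the GC and length correction), and the call of Gar1 was kept. Without siTfap4 replicate 1 or either siZic2 replicate, 0 of these genes rose. Gar1, a protein of box H/ACA ribonucleoproteins, had 6.45 and 21.6 CPM in siTfap4 and 139 and 152 CPM in siZic2, with a log2 fold change of -3.37 that was -2.76 without siTfap4 replicate 1 and -4.51 without siTfap4 replicate 2. Of the 4 ubiquitin-encoding genes, Ubb (1.86 and 1.06 CPM against 68.1 and 88.8 CPM) and Rps27a (47.2 and 138 CPM against 660 and 871 CPM) fell and were kept, each with 84.6% of the end shared.

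Junction, actin and mesenchymal genes also moved both ways. Of 18 epithelial genes, 3 rose and 4 fell (median -0.28, 3 kept, 1 to 6 rises and 2 to 4 falls with single libraries left out, 3 and 5 with the GC and length correction), with Pkp3 up and Ctnnd1 down as given above. Jup, the junctional plakoglobin, had 43.3 and 72.9 CPM in siTfap4 and 186 and 160 CPM in siZic2 (2.97-fold lower, adjusted p = 0.00344). Cdh1, E-cadherin, was at 0.37 and did not pass. Of 22 regulators of actin, 4 rose and 4 fell (median 0.21, 3 kept, 1 to 5 rises and 2 to 4 falls with single libraries left out, 6 and 5 with the GC and length correction). Beside the fall of Pfn1 and the rise of Dstn, Tmsb4x, the actin monomer sequestering thymosin beta 4, had 20.7 and 92.5 CPM in siTfap4 and 709 and 978 CPM in siZic2. Its log2 fold change of -3.90 (adjusted p = 0.000672) was -3.20 without siTfap4 replicate 1 and -5.36 without siTfap4 replicate 2. Cfl1, cofilin, was at -0.43 and did not pass. Of 13 EMT genes, 1 rose and 4 fell (median -0.45, 2 kept, 0 to 1 rises and 2 to 4 falls with single libraries left out, 1 and 5 with the GC and length correction). Vim, the intermediate filament vimentin, had 94.97 and 92.97 CPM in siTfap4 and 300 and 283 CPM in siZic2 (3.10-fold lower, log2 -1.63 ± 0.24 SE, adjusted p = 0.000833). The summed fibroblast and feeder level was also the lower one in siTfap4, as given above, but only 3 of its 12 markers passed the count filter. None of the 3 was called. The part of that sum in the level of Vim was not tested.

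**Figure D5:**
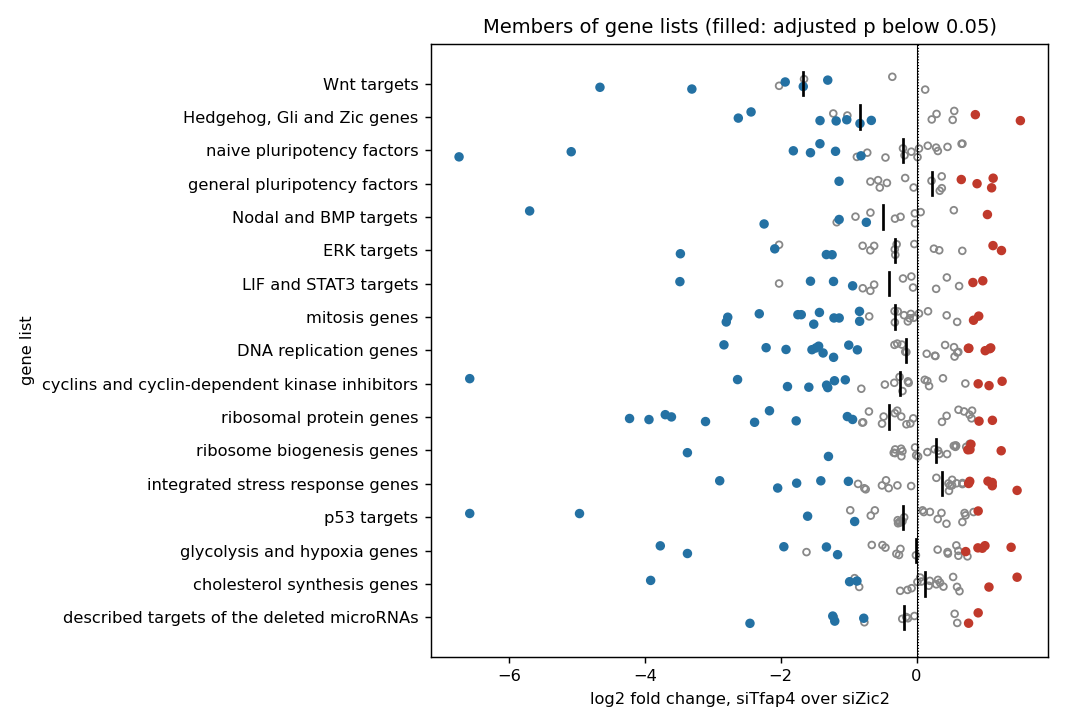
Log2 fold change of siTfap4 over siZic2 for each tested member of 17 gene lists, filled where the adjusted p was under 0.05, with a bar at the median of each list and a dotted line at the median of all genes tested. Wnt targets have the lowest median (-1.67) of the lists drawn, and most lists hold called members on both sides of 0.

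Lists of other cell types and programmes are read against the 23.1% of all genes that were called. Of 11 trophectoderm markers 1 fell, of 15 primitive endoderm markers 2 rose and 1 fell, of 7 neural markers 2 fell, of 7 markers of 2C-like cells 1 fell, and of 5 mesoderm and 3 fibroblast markers none passed. Fgfr2, a receptor of the trophectoderm list, was kept at 3.97 and 11.6 CPM in siTfap4 against 24.7 and 30.1 CPM in siZic2 (log2 -1.81, and -2.79 without siTfap4 replicate 2). Of 12 germline genes 1 rose and 2 fell, and of 15 imprinted genes 1 rose and 2 fell. Without siTfap4 replicate 1, 1 germline fall and 0 imprinted calls were left. Of 10 interferon-stimulated genes, 0 passed and 3 had an unadjusted p under 0.05. Ddx58 (RIG-I), a sensor of foreign RNA, had 71.7 and 45.8 CPM in siTfap4 and 37.9 and 28.5 CPM in siZic2 (adjusted p = 0.0575), and DESeq2 called it (adjusted p = 0.0444). Of 13 genes of the RNA interference machinery 1 rose and 1 fell, with no call kept. Of 14 described targets of the deleted microRNAs 2 rose and 4 fell, Tfap4 itself among the falls (median -0.18, and 0.02 with the GC and length correction, 0 to 2 rises and 1 to 5 falls with single libraries left out, 2 and 3 with that correction). Among them Mbd2, a methyl-CpG binding protein, was 5.47-fold lower and kept (4.96 and 6.57 CPM against 27.7 and 35.7 CPM). Of 16 H3K9 methylation genes 1 rose and 1 fell, and the call of Kdm3a, an H3K9 demethylase, was kept (37.6 and 41.5 CPM against 120 and 109 CPM, 2.90-fold lower).

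A direct comparison of siPOOLs does not say which group left the control level, so the siNeg level was set beside both groups. That level is a mean of 2 unlike libraries. The siNeg replicates differed from each other with a chi-square of 37.7 per degree of freedom, against 30.5 in siTfap4 and 17.7 in siZic2. This statistic grows with depth, and siTfap4 had lower total counts than siNeg. On the log2 scale of CPM, the median replicate difference over all genes tested was 0.343 in siNeg, 0.369 in siTfap4 and 0.242 in siZic2. Nearness of the siNeg mean was counted only for called genes, which were picked by the difference between siTfap4 and siZic2. The share over all genes tested was not computed, so the counts do not show which group left the control level. Of the 3379 called genes, the siNeg mean lay nearer to siZic2 for 3313 and nearer to siTfap4 for 66 (1.95%), and 5 of the 66 are named. For each of the 5, siZic2 against siNeg did not pass (adjusted p = 1.00), nor did siTfap4 against siNeg (adjusted p = 0.141 to 0.226), and these comparisons share libraries. Man2a1, a Golgi mannosidase, had 6.70 and 5.86 CPM in siTfap4, 22.3 and 18.8 CPM in siZic2 and 14.05 and 7.88 CPM in siNeg (3.28-fold lower in siTfap4 than in siZic2, adjusted p = 0.00582, kept). Cpne5, a copine, had 137 and 93.6 CPM in siTfap4, 45.05 and 51.2 CPM in siZic2 and 71.6 and 82.1 CPM in siNeg (2.39-fold higher, adjusted p = 0.00704). The Cpne5 call was lost without siTfap4 replicate 1 (0.0673) and without siZic2 replicate 1 (0.0796). For both genes siNeg lay between the groups. Calls of the other 3 (Atp1a4, Lpgat1 and Stau2) were each lost when siZic2 replicate 1 was left out, with adjusted p-values of 0.0648, 0.0936 and 0.0703.

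Promoters were searched for the E-box letters bound by Tfap4. Promoters here are the 300 bases from 250 before to 50 after a gene's start in RefSeq (GRCm38.p6), which were matched for 10276 of the 14647 genes tested (13130 promoters). CAGCTG, a palindrome that reads the same on both strands and contains CANNTG, was present in 16.9% of the 1186 promoters of genes called higher, 12.4% of the 2041 promoters of genes called lower and 15.5% of all 13130. CACGTG, the E-box of Myc and Max, was present in 11.6%, 10.8% and 9.87% of them. Of the 31 genes named for the largest change or the smallest p, 24 had a promoter, and 4 of these held CAGCTG, all called higher: Ppp2r5b, Sdcbp2, Pnmal2 and Prmt2. The promoters of Myl6b, S100a1, Zfp13 and Tex19.2, also called higher, did not hold it. Of the 4 calls only that of Ppp2r5b was kept. The Sdcbp2 call was lost without siZic2 replicate 1, and the Prmt2 call without siTfap4 replicate 2 or siZic2 replicate 1. Whether matches go with the direction of a call was not tested. The promoters of Ppp2r5b, whose match lies just after the start, and Pnmal2, which holds 2 matches before it, are shown with CAGCTG in capitals.
Ppp2r5b (chr19:6235791-6236090, minus strand): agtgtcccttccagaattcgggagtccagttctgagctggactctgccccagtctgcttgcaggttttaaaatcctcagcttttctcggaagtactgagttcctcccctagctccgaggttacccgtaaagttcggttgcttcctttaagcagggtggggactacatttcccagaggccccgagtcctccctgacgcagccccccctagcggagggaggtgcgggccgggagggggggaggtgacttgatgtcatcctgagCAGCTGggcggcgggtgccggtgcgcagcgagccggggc
Pnmal2 (chr7:16944432-16944731, plus strand): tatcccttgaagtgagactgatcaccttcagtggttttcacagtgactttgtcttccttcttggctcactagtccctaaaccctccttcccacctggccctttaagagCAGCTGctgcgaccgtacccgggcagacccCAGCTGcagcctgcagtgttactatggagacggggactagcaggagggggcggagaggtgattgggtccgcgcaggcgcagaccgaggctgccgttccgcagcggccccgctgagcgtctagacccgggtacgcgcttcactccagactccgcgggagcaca

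Ppp2r5b, a regulatory subunit of the phosphatase PP2A, had 31.7 and 24.2 CPM in siTfap4 and 7.48 and 8.39 CPM in siZic2 (3.52-fold higher, log2 1.82, adjusted p = 0.00256, kept), with 1.16 on the log2 scale after the GC and length correction. Pnmal2, a member of the PNMA family, had 14.01 and 7.74 CPM against 3.26 and 3.33 CPM (3.29-fold higher, adjusted p = 0.00709). The Pnmal2 call was lost without siTfap4 replicate 1 (0.0962), siZic2 replicate 1 (0.0640) or siZic2 replicate 2 (0.0515). A match of letters is a description of the sequence, not evidence of binding.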

How the data were processed

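RNA was extracted with Trizol, and QuantSeq 3' mRNA-Seq FWD libraries were made from 500 ng, per the labels' protocols. The authors deposited raw counts of reads per Ensembl gene, not normalized. Trim Galore and GRCm38 are named in the submitters' processing notes, without versions. No aligner, counter, annotation or strand setting is given in the sources used here, so reads of overlapping antisense genes may not be separated. Of 55421 identifiers, 55240 were matched to GENCODE M21. Replicates differed beyond counting noise (the smallest chi-square was 17.7 per degree of freedom), and totals were between 8326675 and 13788856 counts.

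Genes passing filterByExpr were scaled with TMM and fitted with edgeR 4.0.16 (quasi-likelihood, R 4.3.3), using 1 fit of the 8 libraries without a block. The contrast was siTfap4 minus siZic2, with Benjamini-Hochberg adjustment over 14647 genes and a threshold of 0.05, which defines a call and the words "rose" and "fell". The common dispersion was 0.0495 (a coefficient of variation of 22.2%), with 4 residual and 9.70 prior degrees of freedom. The shared part of a transcript end is the share of 50-base words in its last 300 bases found in other gene models. A ratio with 1 to 3 counts in a group has an exact binomial interval at the 95% level, which covers counting error only.

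Named genes were the 3 targets, the 12 called genes with the largest change in each direction and the 10 with the smallest p (mean of at least 5 CPM, groups not overlapping), the 5 most counted called genes in each direction, up to 4 called members per list, and 5 genes with siNeg nearer siTfap4. Unnamed gene models and pseudogenes were passed over (8 among the rises, 1 among the falls). Named genes whose calls were lost with a library left out are mostly counted, not listed. Some genes that meet the rule are not reported here. List members that did not pass and are given with a log2 value were picked as examples after their values were seen. The members, lists and tests were chosen with earlier results of these data known.

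Alternatives were RLE size factors, unscaled library totals, a filter of 1 count or of 5 CPM, the 4 libraries alone, the replicate number as a block, a 1.5-fold minimum, DESeq2 1.42.0, thinning to the smallest total, protein-coding genes with and without correction for GC and length, and each library left out in turn. A group left with 1 library took its spread from the others.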

Additional observations from a re-analysis of the deposited data

How the results depend on the processing

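The number of calls was 3379 in the main fit (1232 higher, 2147 lower). It stayed within 1.5 times (3143 to 3734 calls) under the following alternatives. These were RLE size factors, unscaled library totals, a filter of 1 count or of 5 CPM, and the 4 libraries alone. They also included DESeq2, thinning, protein-coding genes alone, and the GC and length correction. A similar number does not mean the same genes. The GC and length correction gave 3361 calls, of which 2300 were also main calls. Unscaled totals gave 941 higher and 2301 lower, so that 71.0% of calls were lower against 63.5%. A 1.5-fold minimum left 1210 calls, 122 higher and 1088 lower (89.9% lower), and under it Zic2 lost its call (log2 1.53, adjusted p = 0.0930). With single libraries left out, the calls ranged from 905 to 4057, the higher calls from 74 to 1576 and the lower calls from 831 to 2481. Tfap4 ranged from -1.42 to -1.03 and Zic2 from 1.42 to 1.63 on the log2 scale. The replicate numbers are shared by label only, and the deviations of same-numbered siTfap4 and siZic2 libraries correlated at 0.2498. The replicate block gave 4391 calls (1799 higher, 2592 lower). It gave 10 rises among ribosome biogenesis genes and 7 among ribosomal protein genes, against 4 and 2 without it. The precision is limited by 2 libraries a group and by the low counts of Zic2.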
